A study of Mus musculus with 12 samples.

Results

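Transcript levels were compared between brown fat that lacks Cdk7 and control brown fat, both from mice kept at room temperature. These are 6 of the 12 libraries of a study in which other mice of both genotypes were exposed to cold, and they were chosen by their labels alone: the pools RT-wt-1, RT-wt-2 and RT-wt-3 (WT, replicates 1 to 3) and the pools RT-ko-4, RT-ko-5 and RT-ko-6 (KO, replicates 4 to 6). The tissue was interscapular brown adipose tissue of C57BL/6 mice aged 12 weeks, on standard chow, collected at zeitgeber time 9. Each library is a pool of RNA from 2 mice of 1 genotype, 250 ng from each, so a group of 3 libraries holds 6 mice. WT mice were wild type littermates. KO mice are labelled Cdk7 bKO, a Cdk7 deletion in brown fat. The driver of the deletion and the sex of the mice are not given in the sources used here, and strain, age, diet and time of day were the same in both groups. The comparison asks what the loss of Cdk7 changes in brown fat that has not been challenged by cold.

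Cdk7 is a cyclin-dependent kinase that works with its cyclin Ccnh and the assembly factor Mnat1 as the CDK-activating kinase. Within the general transcription factor TFIIH, this trimer phosphorylates the tail of the large subunit of RNA polymerase II as transcription starts, and on its own it activates kinases of the cell cycle. Brown adipocytes burn fatty acids in abundant mitochondria and release the energy as heat through the uncoupling protein Ucp1. Noradrenaline from sympathetic nerves drives this through beta-adrenergic receptors and cyclic AMP, and nuclear receptors of the PPAR and ERR families with their PGC-1 coactivators keep up the genes of lipid oxidation and respiration.

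Reads assigned to genes ran from 27815380 to 36792555 per library, and 13735 to 14895 genes had at least 10 counts. Mitochondrially encoded transcripts took 31.2 to 42.5% of the counts. Levels are given as CPM, read counts scaled to a common library size with TMM factors, in the order WT replicates 1, 2 and 3 and KO replicates 4, 5 and 6. Of 53379 gene IDs, 14584 passed a filter on low counts and were tested. A gene is said to have risen or fallen where its adjusted p was under 0.05 in edgeR's quasi-likelihood test, and a fold change is given on the log2 scale as KO over WT ± its standard error, with n = 3 pools per group. Labels do not say that the pools were processed on separate days, so p-values measure the spread between these pools.

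Brown fat without Cdk7 differed from control brown fat in both directions. Of the 14584 tested genes 2438 (16.7%) were higher and 2603 (17.8%) were lower in KO, 34.6% in either direction. Among them 810 (5.55%) were higher by over 2-fold and 515 (3.53%) were lower by over 2-fold. The 3 KO pools did not overlap the 3 WT pools for 7211 genes (49.4%). All lists below are to be read beside these shares, and beside a median log2 fold change of 0 over all tested genes. The near balance of rises and falls rests on the scaling: with library totals in place of TMM factors the median moved by 0.20, and 3802 genes were higher and 998 lower, 79.2% of calls in place of 48.4% being rises. None of the 5041 genes called turned direction in any of the 16 alternative settings that tested it. These settings reuse the same pools, so turns were unlikely from the start. The share of these calls that a setting kept ran from 33.5%, without 2 pools described below, to 98.9%, with all 12 libraries.

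The pools differed in skeletal muscle transcripts within each genotype. The summed level of 18 muscle markers was 511.7, 1148 and 173 CPM in WT against 54.98, 41.03 and 1510 CPM in KO. WT replicate 2 and KO replicate 6 were thus the highest of their groups, and the groups overlapped. Of these markers 1 passed the test, the fall of the myosin light chain gene Myl1, which was lost in 5 alternatives,, and their median was 0.01. Without these 2 pools, 834 genes were higher and 910 lower, from 2 pools against 2. That fit has fewer samples, and of the calls in the whole comparison it kept 33.5%. In the pools it keeps, the muscle markers were at 511.7 and 173 CPM in WT against 54.98 and 41.03 CPM in KO. Muscle level and genotype thus cannot be told apart in that fit. For each list below, its counts of rises and falls with library totals and without these 2 pools are given, and counts without a single pool where that moves a count of at least 4 by over 1.5 times.

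**Figure D1:**
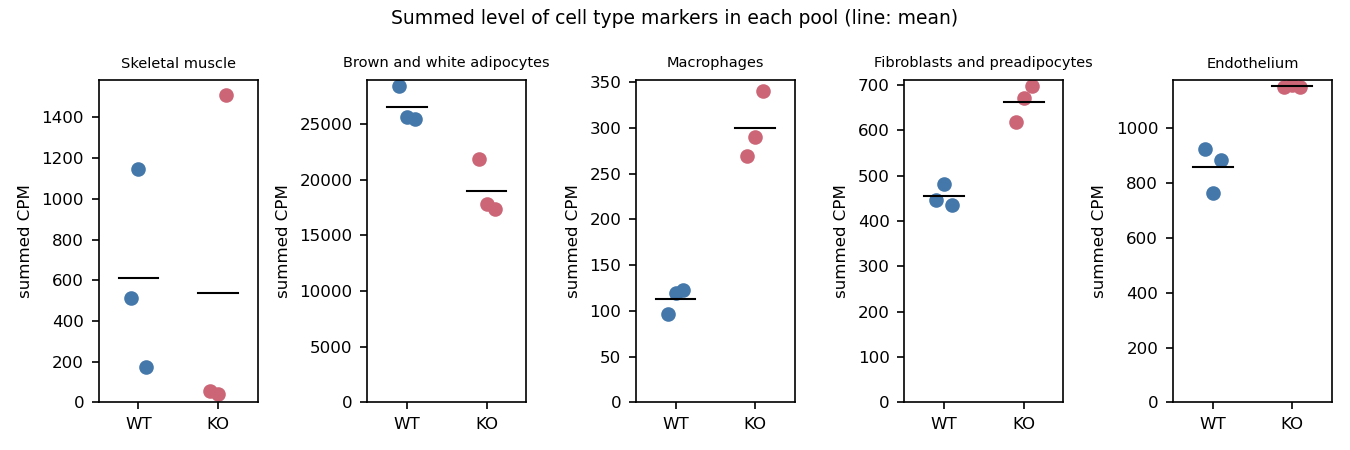
Summed CPM of cell type marker lists in each pool, WT in blue and KO in red, with the group mean as a line. Skeletal muscle markers were high in 1 KO pool (1510 CPM) and varied in WT, while the macrophage markers lay at 96.7 to 123 CPM in WT against 269 to 340 CPM in KO.

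Cdk7 transcripts were reduced in every KO pool and not lost. Cdk7 (ENSMUSG00000069089, GRCm38 chromosome 13, 100702631 to 100730939, minus strand) had 16.9, 15.4 and 16.5 CPM in WT against 4.5, 5.31 and 5.96 CPM in KO. The groups lay well apart, with the KO mean at 32.2% of the WT mean (log2 fold change -1.64 ± 0.13, adjusted p = 1.73e-05). Counts per gene cannot tell deleted from intact exons, and the tissue holds cells other than brown adipocytes.

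The partners of Cdk7 in TFIIH moved little. Ccnh had 18.5, 18.7 and 19.5 CPM in WT against 16.3, 14.2 and 15.2 CPM in KO, a fall of 1.24-fold (-0.31 ± 0.10, adjusted p = 0.0295), and Mnat1 was at -0.23 ± 0.11 (adjusted p = 0.136). Of the TFIIH core, Gtf2h2 fell (-0.44 ± 0.12, adjusted p = 0.0136), with 12.8, 12.1 and 11.5 CPM in WT against 9.81, 8.09 and 8.78 CPM in KO. The helicases Ercc2 (0.07 ± 0.11) and Ercc3 (0.09 ± 0.09), and Gtf2h1 (0.35 ± 0.14), Gtf2h3 (0.22 ± 0.10), Gtf2h4 (-0.33 ± 0.16) and Gtf2h5 (-0.02 ± 0.09), did not pass. Counting Cdk7 itself, 3 of 10 members fell and 7 did not pass, with 2 rises and 1 fall under library totals and 1 fall without the muscle-rich pools. The falls of Ccnh and Gtf2h2 ended with library totals, without both muscle-rich pools and without KO replicate 6. That of Ccnh also ended with muscle level as a covariate and without WT replicates 2 or 3 or KO replicate 5. Gtf2h1 passed as a rise in 6 of the 16 alternatives and Gtf2h3 in 3, and Gtf2h4 as a fall in 1, limma voom. Gtf2h2 and Ccnh each overlap a gene on the opposite strand, as does Gtf2h1, which leaves their counts uncertain. The coordinates of Cdk7 overlap no other annotated gene.

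The large subunit of RNA polymerase II, the substrate of Cdk7 in TFIIH, rose, and with TMM factors no other subunit passed as a rise. Polr2a (GRCm38 chromosome 11, 69733997 to 69758637, minus strand) had 64.7, 50.5 and 56.8 CPM in WT against 112, 138 and 149 CPM in KO. Every KO pool was above every WT pool, and the rise was 2.32-fold (1.21 ± 0.13, adjusted p = 9.4e-05). Of the other 12 genes of the list, 3 fell (Polr2i at -0.56, Polr2k at -0.51 and Polr2m at -0.47) and 9 did not pass. These falls ended with library totals, where 2 members of the list rose, and without the muscle-rich pools. The rise of Polr2a held in both. Among all 16 alternatives Polr2k lost its call in 6 and Polr2i in 3. Of 28 kinases and elongation factors that act on the polymerase after initiation, 6 rose and 3 fell. Supt5, a subunit of the pausing and elongation factor DSIF, rose from 65.5, 57.6 and 62.1 CPM to 82.1, 96.4 and 97.4 CPM (0.58 ± 0.10). Cdk9, the kinase that releases paused polymerase, was at 0.28, and Cdk12 was at -0.45. The counts of this list rested on single pools: 2 rose without WT replicate 2 or KO replicate 5 and 1 without WT replicate 3 or KO replicate 6. With library totals 10 rose and the falls ended, and without the muscle-rich pools no rise was called and 1 gene fell. Cdk9 lost its call in 8 alternatives, Supt5 only without the muscle-rich pools and Cdk12 only with library totals.

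**Figure D2:**
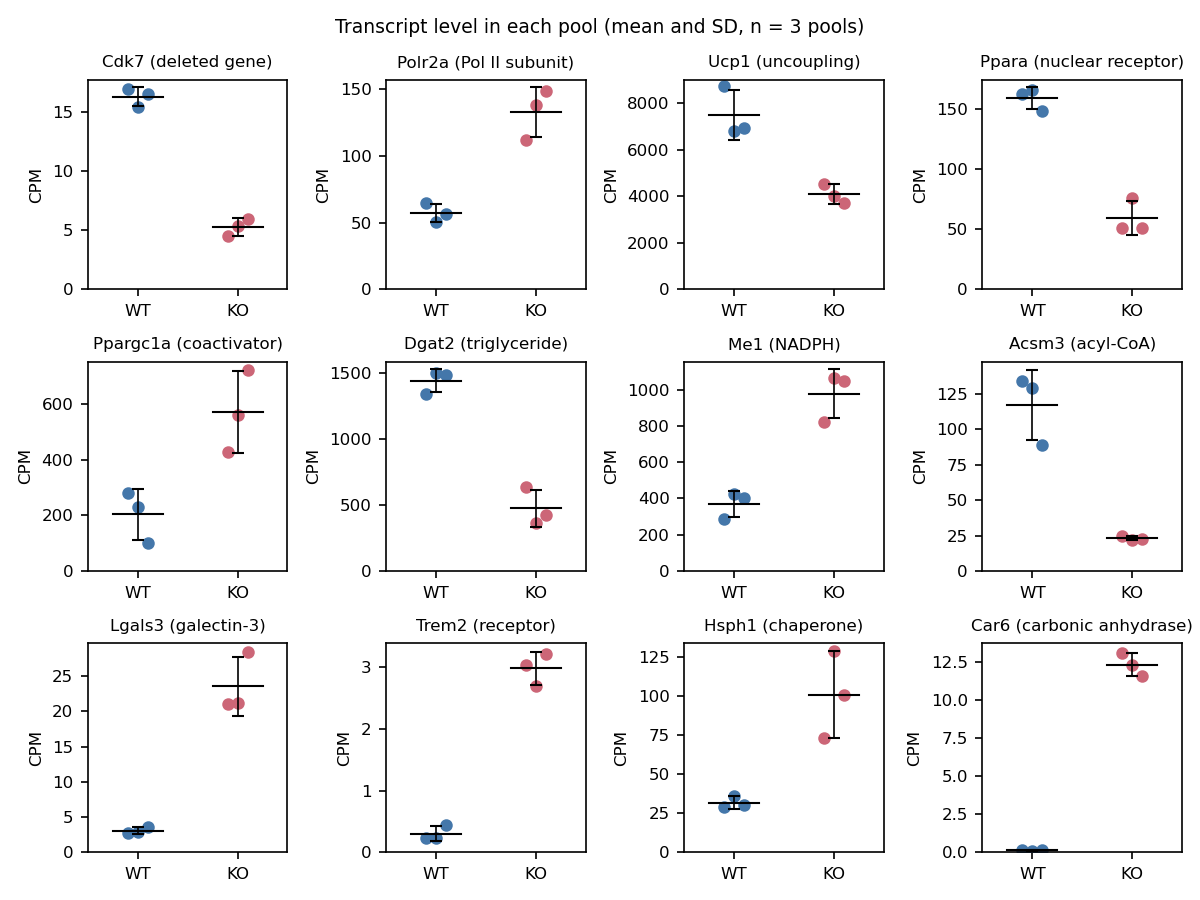
CPM of 12 genes in each pool, each panel with its own axis from 0. Points are pools, lines are means and bars are SDs over n = 3 pools per group. For 11 of the genes past the test the 3 WT and 3 KO pools do not overlap, and Ppargc1a is the gene shown that did not pass.

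Some thermogenic genes were lower in KO, among them several regulators of the brown fat programme. Of 23 tested genes 10 fell and 13 did not pass, with a list median of -0.36. With library totals 5 fell and 2 rose, without the muscle-rich pools 5 fell, and without WT replicate 2 or KO replicate 6 the falls were 6. Ppara, a nuclear receptor that binds fatty acids and drives their oxidation (GRCm38 chromosome 15, 85734983 to 85802819, plus strand), had 163, 166 and 149 CPM in WT against 51.6, 76.2 and 51.1 CPM in KO (-1.42 ± 0.15, adjusted p = 0.000142). Ppargc1b, a coactivator of mitochondrial genes, had 212, 160 and 155 CPM in WT against 79.2, 78.5 and 64.2 CPM in KO (-1.25 ± 0.14). Both genes thus stood at less in every KO pool than in the lowest WT pool. Esrrg, a nuclear receptor of oxidative metabolism, fell from 48.3, 51.9 and 48.6 CPM to 27, 24.4 and 23.9 CPM (-0.98 ± 0.09). Ebf2, which marks and sustains brown adipocyte identity, fell from 87.7, 75.6 and 87.5 CPM to 51.2, 39.9 and 51 CPM (-0.82 ± 0.12). Ucp1 fell 1.83-fold, with 8749, 6791 and 6953 CPM in WT against 4542, 4025 and 3724 CPM in KO (-0.87 ± 0.14, adjusted p = 0.000809).

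Ppargc1a and Dio2, members of the same list that cold is known to induce, did not follow these falls. Ppargc1a, the coactivator closest to Ppargc1b, had 278, 228 and 102 CPM in WT against 426, 561 and 721 CPM in KO (1.49 ± 0.45, adjusted p = 0.065). Every KO pool was above every WT pool, but the WT pools spread widely and the gene did not pass. It passed under 6 of the 16 alternatives, among them DESeq2, limma voom and the fit without WT replicate 3, with adjusted p between 0.003 and 0.27 over all of them. Dio2, which activates thyroid hormone, had 932, 392 and 290 CPM in WT against 678, 1064 and 900 CPM in KO (0.71 ± 0.53, adjusted p = 0.365). The groups overlapped through WT replicate 1, and without that pool Dio2 was at 1.36 (adjusted p = 0.0053), whereas its adjusted p ran up to 0.73 under other alternatives. Both genes overlap unnamed or predicted genes.

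Regulators of adipocyte differentiation fell more often than all tested genes and did not rise more often. Of 16 members 6 fell (37.5% against 17.8% of all) and 2 rose (12.5% against 16.7%). With library totals 3 fell and 3 rose, and without the muscle-rich pools 4 fell and no rise was called. The rises also ended without WT replicates 2 or 3 or KO replicates 5 or 6. Zfp423, a zinc finger protein of preadipocytes, fell from 18.8, 16.6 and 15.6 CPM to 8.85, 9.27 and 9.19 CPM (-0.90 ± 0.11). Klf15, a factor of amino acid and lipid metabolism, fell 3.12-fold (-1.64 ± 0.30, adjusted p = 0.0108) from 50.2, 52.4 and 38.7 CPM to 17.3, 9.2 and 18.8 CPM. Rxrg, a partner of the PPAR receptors, fell 1.93-fold (-0.95 ± 0.11).

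Several transcripts of adrenergic receptors and of cyclic AMP signalling changed. Of 22 tested genes 9 fell, 3 rose and 10 did not pass, against 6 falls and 5 rises with library totals and 4 falls and 1 rise without the muscle-rich pools. Adra1a, the alpha-1A adrenergic receptor, fell from 277, 206 and 195 CPM to 107, 125 and 95.1 CPM (-1.05 ± 0.15, adjusted p = 0.000623). Prkar2b, the main regulatory subunit of protein kinase A in adipocytes, fell from 1307, 1407 and 1270 CPM to 631, 699 and 583 CPM (-1.06 ± 0.11, adjusted p = 6.12e-05). The adenylyl cyclases, which make cyclic AMP, moved in opposite directions. Adcy5 rose 3.04-fold, from 6.47, 3.35 and 3.68 CPM to 15.2, 13.8 and 11.6 CPM (1.60 ± 0.24). Adcy9 fell 1.91-fold, from 24.5, 27.8 and 23.7 CPM to 14.5, 12.1 and 13.2 CPM (-0.93 ± 0.11).

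Transcripts of mitochondrial fatty acid oxidation were lower at several steps. Of 17 tested genes 13 fell and 4 did not pass, with a median of -0.44. Slc25a20, which carries acylcarnitines into mitochondria, fell from 494, 508 and 487 CPM to 337, 290 and 281 CPM (-0.71 ± 0.10). Etfdh, which hands the electrons of oxidation to ubiquinone, had 857, 883 and 871 CPM in WT against 533, 554 and 497 CPM in KO (-0.72 ± 0.09, adjusted p = 0.000287). Acaa2, the thiolase of the last step, was also lower (-0.68 ± 0.11) and Eci1, an enoyl-CoA isomerase, 1.57-fold (-0.65 ± 0.10). With library totals 5 members fell and 1 rose, without the muscle-rich pools 5 fell, and without KO replicate 6 alone 8 fell. The 4 genes named here held in these fits, but they were preferred for naming because their calls held in every alternative.

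Transcripts for the breakdown of branched-chain amino acids, which also feeds brown fat mitochondria, fell as broadly. Of 22 tested genes 17 fell and 5 did not pass, with a median of -0.46. Pccb, a subunit of propionyl-CoA carboxylase, had 435, 399 and 427 CPM in WT against 217, 215 and 223 CPM in KO (-0.95 ± 0.09, adjusted p = 4.8e-05). Aldh6a1, of valine breakdown, fell from 613, 666 and 653 CPM to 317, 354 and 320 CPM (-0.96 ± 0.10). Dbt, a subunit of the branched-chain ketoacid dehydrogenase, fell 1.98-fold (-0.99 ± 0.10), and Ppm1k, the phosphatase that activates that enzyme, fell 2.89-fold (-1.53 ± 0.16). Library totals left 7 falls in this list and the fit without the muscle-rich pools left 8. All 4 genes named were among those left by both, but genes whose calls held in every alternative were preferred for naming. Their survival thus says nothing about the rest of the list.

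Transcripts of the tricarboxylic acid cycle and the respiratory chain had falls of smaller size. In the cycle 12 of 17 genes fell, with a median of -0.36, among them citrate synthase (Cs, 2128, 2164 and 2213 CPM in WT against 1551, 1483 and 1575 CPM in KO, -0.50 ± 0.10) and Sdhb (-0.54 ± 0.10). Of 35 nuclear-encoded genes of complex I 18 fell (median -0.33), including Ndufa4 (-0.63 ± 0.11), and of 37 of complexes III to V 22 fell and 1 rose (median -0.34). The member that rose was Atp5g1, a c subunit of ATP synthase, at 1.78, 3.88 and 1.73 CPM in WT against 4.81, 4.26 and 6.43 CPM in KO (1.06 ± 0.32, adjusted p = 0.0337), and it lost its call in 5 fits that left out 1 pool. These lists depended on the scaling: with library totals the cycle had no call, complex I had 1 fall and complexes III to V had 1 fall and 2 rises, with medians of -0.15, -0.13 and -0.14. At an unadjusted p under 0.05, 13 genes of the cycle were lower with TMM factors, and DESeq2 called 13 and limma voom 14. Without the muscle-rich pools 0, 0 and 1 genes of these lists fell, with medians of -0.34, -0.25 and -0.28. Single pools mattered too. Without KO replicate 6 the falls were 6, 4 and 6 in these lists. Complex I had 5 without WT replicate 2 and 7 without KO replicate 5, and complexes III to V had 7 without WT replicate 2 and 14 without WT replicate 3 or KO replicate 5. The fall of Atp5l, a subunit of ATP synthase, held in every setting (-0.63 ± 0.10), which is also why it was preferred for naming.

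Messenger RNAs encoded in mitochondria lay between -0.72 (mt-Nd5) and -0.19 (mt-Nd1) in the 8 genes tested, and none passed. By unadjusted p under 0.05 there were 3 falls, DESeq2 called 2 and limma voom 0. Without the muscle-rich pools 1 fell. The other 5 of the 13 were removed by the filter and are not read as absent. Of 16 factors that copy and transcribe mitochondrial DNA 5 fell and 1 rose, with 2 falls and 1 rise under library totals and 2 falls without the muscle-rich pools. Tfb1m, which methylates mitochondrial ribosomal RNA, fell from 11.4, 11.3 and 11.8 CPM to 6.42, 6.29 and 6.76 CPM (-0.82 ± 0.11). Gabpa, a nuclear activator of respiratory genes, fell from 94.3, 91.2 and 91.6 CPM to 60.5, 61.1 and 55.3 CPM (-0.65 ± 0.09). Mitochondrial ribosomal proteins had 17 falls and 5 rises among 72, and this turned to 3 falls and 13 rises with library totals and to 2 falls without the muscle-rich pools. Their falls were 10 without WT replicate 2 and 6 without KO replicate 6, and their rises 1 to 3 without WT replicates 2 or 3 or KO replicates 5 or 6. Cytosolic ribosomal proteins had 4 falls and 3 rises among 79, which became 8 rises with library totals and no call without the muscle-rich pools. Their falls ran from 1, without WT replicate 2 or KO replicate 6, and 2, without WT replicate 3, to 9, without WT replicate 1.

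Carriers of the inner mitochondrial membrane fell more often than all tested genes and did not rise more often. Of 41 tested 13 fell (31.7% against 17.8% of all) and 5 rose (12.2% against 16.7%). The counts were 7 falls and 7 rises under library totals and 7 falls and 2 rises without the muscle-rich pools. The rises were 2 without WT replicate 3 or KO replicate 6 and 3 without WT replicate 2 or KO replicate 5. Slc25a42, the coenzyme A carrier, fell from 351, 332 and 342 CPM to 179, 161 and 144 CPM (-1.08 ± 0.10, adjusted p = 4.8e-05). Slc25a48 fell 4.12-fold, from 37.2, 44.9 and 45.8 CPM to 13.7, 7.93 and 9.32 CPM (-2.04 ± 0.20). Slc25a10, the dicarboxylate carrier that exchanges malate and succinate for phosphate, rose 4.07-fold, from 10.5, 11.3 and 7.2 CPM to 47.9, 32.8 and 36.8 CPM (2.03 ± 0.20, adjusted p = 0.000303).

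Peroxisomes shorten very long and branched fatty acids. Of 23 genes of this pathway 10 fell and 2 rose, with a median of -0.31. The falls were 7 with library totals and 6 both without the muscle-rich pools and without KO replicate 6 alone. Eci3, a peroxisomal enoyl-CoA isomerase, fell 5.15-fold, from 4.93, 4.98 and 5.72 CPM to 0.905, 0.819 and 1.31 CPM (-2.37 ± 0.21). Decr2, a dienoyl-CoA reductase, fell from 43.9, 41.8 and 41.3 CPM to 21.9, 17.7 and 19.6 CPM (-1.10 ± 0.10). Abcd3, a transporter of fatty acids into peroxisomes, fell 1.66-fold (-0.73 ± 0.13). Acaa1b, a peroxisomal thiolase, was 1 of the 2 that rose (0.87 ± 0.14). Acsm3, a medium-chain acyl-CoA synthetase of mitochondria outside this list, fell 5.06-fold, from 134, 129 and 88.9 CPM to 24.6, 22 and 22.9 CPM (-2.34 ± 0.15, adjusted p = 9.31e-06). It overlaps Eri2 on the opposite strand.

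Most genes of triglyceride synthesis were lower, and some genes of fatty acid synthesis were higher. In triglyceride synthesis 7 of 11 tested genes fell and 1 rose, with a median of -0.58. The falls were 4 with library totals or without KO replicate 6, and 3 without the muscle-rich pools. Dgat2, which adds the last acyl chain and favours newly made fatty acids (GRCm38 chromosome 7, 99153658 to 99182719, minus strand), had 1345, 1501 and 1483 CPM in WT against 634, 366 and 427 CPM in KO (-1.60 ± 0.19, adjusted p = 0.000446). Dgat1, the other enzyme of that step, rose from 345, 257 and 263 CPM to 481, 626 and 467 CPM (0.86 ± 0.15, adjusted p = 0.00164). The 2 enzymes of 1 reaction were thus lower and higher in KO, with no overlap of the pools for either. Gpam, the first acyltransferase of the pathway, fell 1.74-fold (-0.80 ± 0.11), and Pck1, which makes its glycerol backbone from pyruvate, fell from 4397, 3763 and 3485 CPM to 2113, 2422 and 1961 CPM (-0.84 ± 0.13).

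Coat proteins of the lipid droplet and regulators of lipolysis fell in 6 of 15 cases and rose in 1, with 4 falls under library totals and 3 without the muscle-rich pools. Plin1, which guards the droplet surface, fell from 1193, 1086 and 1112 CPM to 753, 696 and 684 CPM (-0.67 ± 0.10). G0s2, an inhibitor of adipose triglyceride lipase, fell 1.95-fold (-0.96 ± 0.16), and Cideb, of the family that fuses droplets, fell 3.65-fold (-1.87 ± 0.25) from 3.99, 4.55 and 5.61 CPM to 1.47, 0.819 and 1.58 CPM.

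Of 17 genes of fatty acid synthesis and desaturation 6 rose, 1 fell and 10 did not pass, with a median of 0.36. With library totals 7 rose, and without the muscle-rich pools 3 rose. Their summed level did not separate the groups, with 61795, 66296 and 59849 CPM in WT against 51783, 60342 and 64179 CPM in KO. Me1, malic enzyme, which supplies NADPH, had 289, 423 and 400 CPM in WT against 823, 1068 and 1047 CPM in KO (1.40 ± 0.16, adjusted p = 0.00018). Pgd, which makes NADPH in the pentose phosphate pathway, rose from 258, 319 and 346 CPM to 799, 656 and 763 CPM (1.26 ± 0.13). For both, every KO pool was well above the highest WT pool. The desaturases Fads1 (0.90 ± 0.12) and Fads2 (1.40 ± 0.19) rose 1.87-fold and 2.64-fold. In cholesterol synthesis 7 of 23 genes rose and 2 fell, with 8 rises and 1 fall under library totals, 4 rises and 1 fall without the muscle-rich pools and 4 rises without KO replicate 6. Hmgcs1, near the start of the pathway, fell 1.54-fold (-0.62 ± 0.12). Among 25 genes of glycolysis 3 rose and 5 fell. With library totals 5 rose and 2 fell, without the muscle-rich pools 2 fell, and 2 or 3 fell without any 1 pool other than WT replicate 1. Among the falls was Pfkfb3, which makes an activator of phosphofructokinase, which went from 1167, 824 and 1066 CPM to 619, 546 and 558 CPM (-0.83 ± 0.13). Pygl, a glycogen phosphorylase outside that list, rose from 486, 675 and 654 CPM to 1220, 1087 and 1155 CPM (0.93 ± 0.13).

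Some markers of adipocytes fell as these metabolic groups did. Of 12 markers 5 fell and 7 did not pass, with a median of -0.30 (4 falls and 1 rise with library totals, 3 falls without the muscle-rich pools), and their summed level, led by Fabp4 and Ucp1, was 25485 to 28423 CPM in WT against 17425 to 21854 CPM in KO. The members ran from -0.87 to 1.54. Of 5 tested markers biased to white fat 1 rose and 4 did not pass, with a median of 1.21. That share of rises (20%) is near the 16.7% over all tested genes, and the filter removed 4 other markers. By unadjusted p under 0.05, 3 were higher. Their summed level was 62.9 to 84.7 CPM in WT against 123 to 170 CPM in KO, and their counts under other settings are not given here. In bulk tissue fewer cells of a type and less RNA per cell cannot be told apart, here and for every group below. The part of adipocyte number in the falls above was not tested.

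Transcripts of lipid-laden macrophages had the highest median of any list. Of 14 tested genes of this cell state 11 rose, with a median of 2.15. With a strict filter 10 of 13 rose, with a median of 1.84. The summed level of the list did not rise, with 10650, 8966 and 8243 CPM in WT against 7661, 8503 and 7585 CPM in KO. The genes named here are a small part of that sum, and the list shares Lpl and Plin2 with the lipid droplet list. The sum thus does not describe the genes named. Lgals3, galectin-3 (GRCm38 chromosome 14, 47367751 to 47386160, plus strand), had 2.72, 2.86 and 3.6 CPM in WT against 21, 21.2 and 28.4 CPM in KO, a rise of 7.65-fold (2.93 ± 0.16, adjusted p = 2.99e-06). Trem2, the lipid receptor that defines the state, had 0.237, 0.233 and 0.446 CPM in WT against 3.03, 2.69 and 3.2 CPM in KO (3.24 ± 0.29, adjusted p = 3.31e-05). Atp6v0d2, a macrophage subunit of the vacuolar proton pump, had 0.118, 0.175 and 0.112 CPM in WT against 1.95, 2.19 and 3.77 CPM in KO (4.24 ± 0.38). Both were near the lower end of detection in WT and passed the filter on low counts through their KO pools. Their rises are thus no separate support, and they raise the median of the list. The same 11-of-14 count was reached without the muscle-rich pools and with library totals, and limma voom called 10 rises and 1 fall. Without WT replicate 1 or WT replicate 2 the rises were 8.

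A pair of members of that list depended on single pools. Gpnmb, a glycoprotein of lysosome-rich macrophages, had 1.54, 1.75 and 1.51 CPM in WT against 10.3, 12 and 37 CPM in KO (3.62 ± 0.68, adjusted p = 0.0192), with KO replicate 6 far above KO replicates 4 and 5. Its value was 2.80 without that pool, and its call ended without any 1 of the WT pools. Mmp12, macrophage elastase, had 0.118, 0.146 and 0.697 CPM in WT against 9.08, 17.5 and 43.8 CPM in KO (6.09 ± 1.07, adjusted p = 0.0171). It was at 5.27 without KO replicate 6 and at 7.40 without WT replicate 3, and its call ended in limma voom and without WT replicates 1 or 2.

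General macrophage genes and antigen presentation rose too. Of 16 tested macrophage markers 11 rose and 5 did not pass (median 0.94), and without the muscle-rich pools 7 rose. Cd68 rose from 3.99, 2.97 and 3.71 CPM to 12.4, 12.8 and 20 CPM (2.08 ± 0.21), C1qb, a subunit of complement C1q, from 9.82, 10.4 and 11.4 CPM to 31.4, 28.6 and 33.7 CPM (1.56 ± 0.10), and Lyz2, lysozyme, from 25, 36.9 and 37.2 CPM to 110, 129 and 157 CPM (1.99 ± 0.18). Each of the 8 MHC class II genes rose, between 0.92 and 1.35, and 6 of them without the muscle-rich pools. H2-Ab1, a beta chain, rose from 27.1, 28.3 and 28.7 CPM to 54.2, 71.4 and 84.3 CPM (1.32 ± 0.14), and Cd74, the invariant chain, rose 2.39-fold (1.26 ± 0.17). Among 19 tested chemokines 8 rose and 1 fell, with 10 rises under library totals, 4 without the muscle-rich pools and 5 without any 1 of the WT pools. Ccl6 (1.68 ± 0.15) and Ccl9 (1.71 ± 0.19), made by myeloid cells, rose 3.21-fold and 3.27-fold. Of 25 interferon-stimulated genes 4 rose and 2 fell, with 7 rises and 1 fall under library totals and 1 rise and 3 falls without the muscle-rich pools. Their rises were 7 without WT replicate 3 and 2 without WT replicates 1 or 2 or KO replicates 4 or 6. Of 30 lysosomal genes 10 rose and 3 fell, against 15 and 1 with library totals and 5 and 1 without the muscle-rich pools, and 6 rose without WT replicate 2. Ctsk, cathepsin K, rose 2.29-fold (1.20 ± 0.17). The cholesterol exporters of the lysosome split, with Npc2 at 0.63 ± 0.12 and Npc1 at -0.60 ± 0.10.

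**Figure D3:**
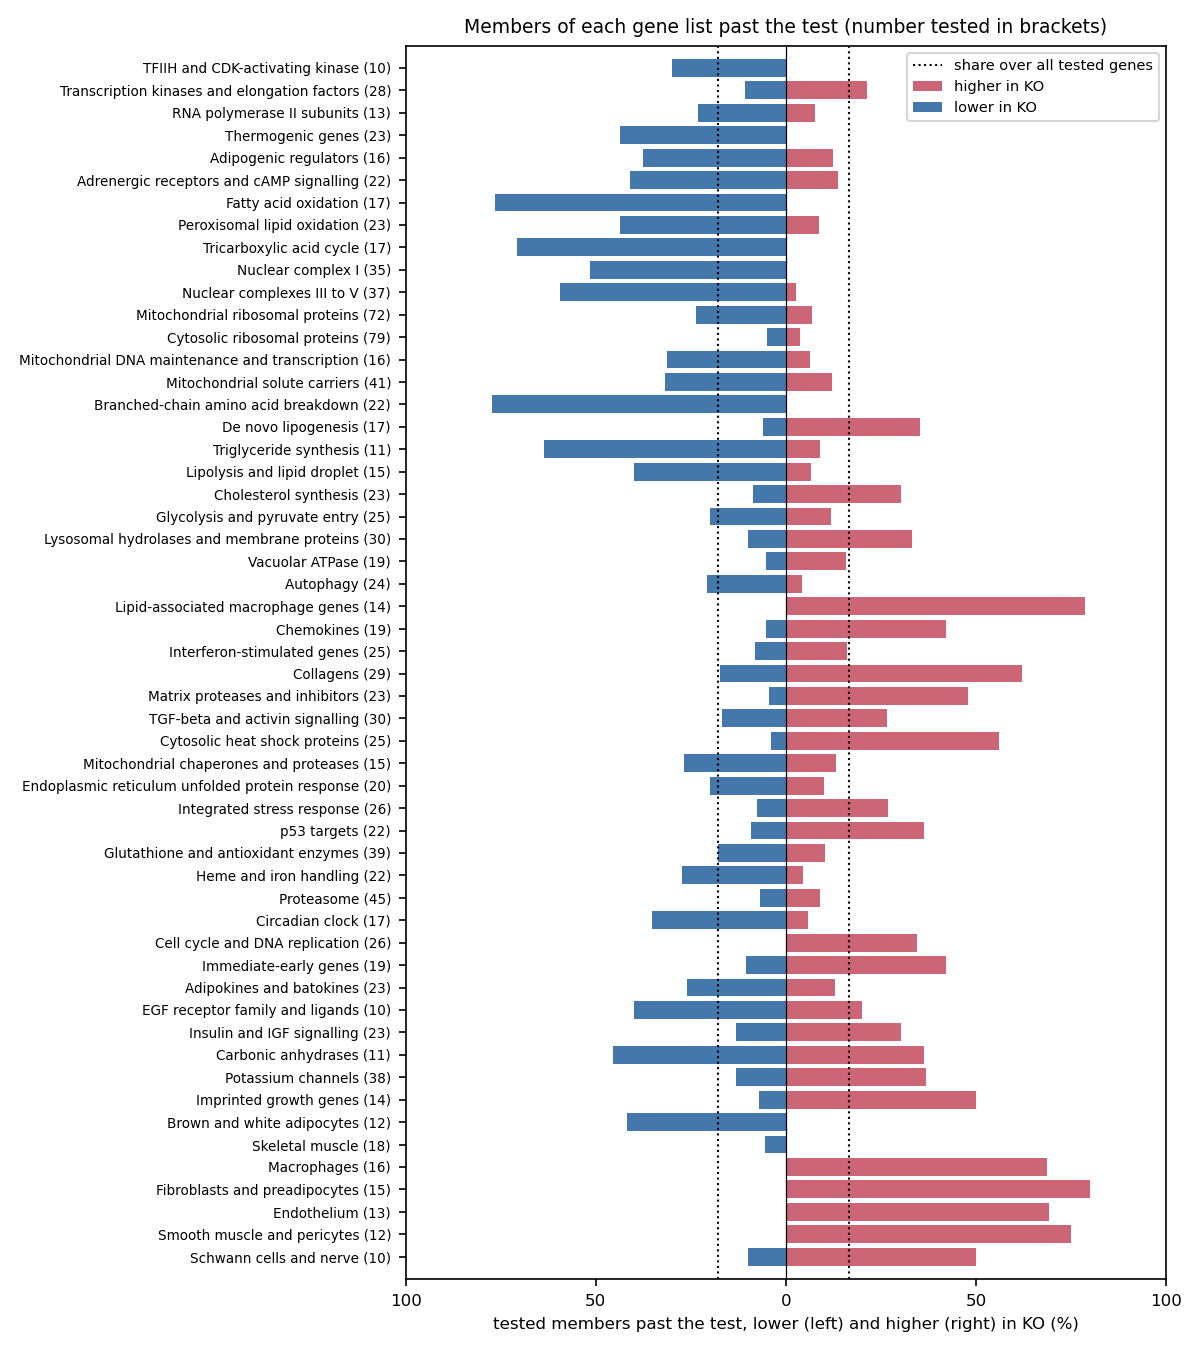
Share of tested members of each list that passed the test, lower in KO to the left and higher in KO to the right, for lists with at least 10 tested members. Dotted lines mark the shares over all 14584 genes (17.8% lower, 16.7% higher). Bars for lipid oxidation, branched-chain amino acids and the respiratory chain reach left, and those for macrophages, fibroblasts, collagens and heat shock proteins reach right.

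Matrix genes rose, with named exceptions. Of 29 tested collagen genes 18 rose and 5 fell, with a median of 0.48. Col4a1, of the basement membrane (GRCm38 chromosome 8, 11198423 to 11312826, minus strand), rose from 470, 373 and 369 CPM to 633, 841 and 751 CPM (0.88 ± 0.13). Col18a1, the source of endostatin, rose from 10.3, 10.8 and 11.6 CPM to 21.5, 23.4 and 22.5 CPM (1.04 ± 0.10), and the fibrillar Col1a1 rose 1.87-fold (0.90 ± 0.13). Col12a1, which binds to collagen I fibrils, fell from 37.3, 38.4 and 35.6 CPM to 14.2, 14.6 and 12 CPM (-1.45 ± 0.10, adjusted p = 8.88e-06). Col6a6, Col23a1, Col4a5 and Col27a1 were the other falls (-1.41, -1.14, -1.07 and -0.60). With library totals 19 collagens rose and 5 fell, and without the muscle-rich pools 10 rose and 4 fell. The fall of Col4a5 ended in the latter.

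Of 23 matrix proteases and their inhibitors 11 rose and 1 fell, with 13 rises under library totals and 7 without the muscle-rich pools. Mmp14, a membrane-bound protease that activates Mmp2, rose from 6.91, 6.38 and 6.89 CPM to 18.7, 17.3 and 16.5 CPM (1.38 ± 0.11, adjusted p = 1.73e-05), and Mmp2 rose 1.95-fold (0.96 ± 0.11). The member that fell was Mmp19, from 46.8, 47.1 and 50.4 CPM to 22.9, 23.5 and 29.1 CPM (-0.93 ± 0.11). In TGF-beta and activin signalling 8 of 30 genes rose and 5 fell. With library totals 11 rose and 1 fell, and without the muscle-rich pools 1 rose and 1 fell. Without KO replicate 5 alone 5 rose and 3 fell, and the falls were 3 without WT replicate 2 and 2 without KO replicate 6. Fst, follistatin, which binds activin, rose from 2.6, 2.42 and 2.23 CPM to 6.02, 5.86 and 6.83 CPM (1.37 ± 0.16), and Acvr1c, the activin receptor ALK7 of adipocytes, fell from 93.7, 89.9 and 82.8 CPM to 34.8, 43.6 and 35.5 CPM (-1.23 ± 0.11).

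Markers of stromal and vascular cells moved with the matrix genes. Of 15 markers of fibroblasts and preadipocytes 12 rose and 3 did not pass (median 0.61), with summed levels of 435 to 482 CPM in WT against 618 to 698 CPM in KO. Pdgfra, their growth factor receptor, rose 1.84-fold (0.88 ± 0.16). In endothelium 9 of 13 rose (median 0.42), summed at 764 to 925 CPM in WT against 1151 to 1157 CPM in KO, and Pecam1 rose from 119, 98.4 and 111 CPM to 178, 204 and 187 CPM (0.79 ± 0.10). In smooth muscle and pericytes 9 of 12 rose (median 0.50), summed at 643 to 710 CPM in WT against 775 to 906 CPM in KO. Acta2, smooth muscle actin, rose from 36.9, 26 and 28.4 CPM to 79.9, 83.6 and 83.7 CPM (1.44 ± 0.13). Their part in the rises of matrix genes was not tested. With library totals 13, 11 and 11 markers of these 3 lists rose, and without the muscle-rich pools 7, 5 and 3. Smooth muscle had 5 rises without WT replicate 2.

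Other cell types were less represented. Of 9 tested T and natural killer cell markers 3 rose, of 6 lymphatic markers 2 rose and of 10 Schwann cell and nerve markers 5 rose and 1 fell. Without the muscle-rich pools 1, none and 3 of these rose, and the nerve list had 2 or 3 rises without WT replicates 2 or 3 or KO replicates 4 or 5. With library totals 3, 3 and 8 rose. The Schwann cell marker that fell, S100b, is also known in adipocytes, and had 40.2, 52.9 and 70.6 CPM in WT against 21.8, 16.1 and 18.7 CPM in KO (-1.53 ± 0.22). Of 5 tested markers each of B cells, mast cells and red blood cells none passed with edgeR. By unadjusted p under 0.05, 4 B cell and 1 mast cell markers were higher and 2 red blood cell markers were lower, DESeq2 called 1 B cell marker, and limma voom called 2 red blood cell markers. Markers of mesothelium and epithelium were all removed by the filter, with summed levels of at most 0.471 CPM. Of 9 neutrophil and 6 hepatocyte markers 1 each was tested, at summed levels of at most 5.01 and 1.64 CPM.

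Heat shock proteins, the chaperones of the cytosol, rose at room temperature. Of 25 members 14 rose and 1 fell, with a median of 0.46. Hsph1, a partner of Hsp70 (GRCm38 chromosome 5, 149614287 to 149636376, minus strand), had 28.8, 36.3 and 30.6 CPM in WT against 73, 129 and 101 CPM in KO (1.66 ± 0.21, adjusted p = 0.000904). Dnajb1, which delivers clients to Hsp70, rose from 15.3, 20.2 and 16.8 CPM to 39.9, 49.2 and 37.9 CPM (1.28 ± 0.13). Hspb1, a small heat shock protein, rose from 31.3, 30.3 and 36.6 CPM to 66.3, 78 and 75.1 CPM (1.16 ± 0.11). Hspa1a, inducible Hsp70, rose 4.87-fold, from 0.237, 0.525 and 0.418 CPM to 2.26, 1.9 and 1.75 CPM (2.29 ± 0.30), and is uncertain since its near copy Hspa1b can share its reads. Library totals gave 15 rises, and the fit without the muscle-rich pools 7 rises.

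The promoters of 3 of these genes are shown because heat shock factor is known to bind repeats of GAA in alternating direction, and these are 3 of the 5 risen members whose promoter holds a facing pair. The 150 bases before the RefSeq start are given 5′ to 3′ on the strand of the gene (GRCm38.p6), with every pair GAANNTTC or TTCNNGAA in capitals.
Hsph1 (chr5:149636337-149636486, minus strand): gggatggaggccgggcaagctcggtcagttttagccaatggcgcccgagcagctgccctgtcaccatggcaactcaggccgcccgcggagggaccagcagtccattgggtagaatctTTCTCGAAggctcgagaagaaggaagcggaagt
Hspb1 (chr5:135887769-135887918, plus strand): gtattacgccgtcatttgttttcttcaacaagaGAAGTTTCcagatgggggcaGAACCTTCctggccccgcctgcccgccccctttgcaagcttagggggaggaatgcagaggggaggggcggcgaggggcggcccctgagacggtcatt
Hspa1a (chr17:34972157-34972306, minus strand): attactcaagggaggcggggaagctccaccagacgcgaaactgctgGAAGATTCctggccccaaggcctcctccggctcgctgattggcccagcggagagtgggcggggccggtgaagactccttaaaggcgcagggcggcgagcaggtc

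Hspb1 holds 2 such pairs in this stretch, and Hsph1 and Hspa1a 1 each. In the 250 bases before the start a pair was found in 6 of the 20 members of the list that have a promoter in the table, of 25, and in 12.8% of all 32851 promoters there, on both strands. These pairs were chosen after the sequences had been read. The heat shock element, 3 such units in a row and so a longer run that holds a pair, was in none of the 11 risen members with a promoter and in 0.466% of all promoters. A match is a run of letters and not a binding site, and no match says only that these letters are not in this window.

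Other stress programmes moved in part. Of 26 genes of the integrated stress response 7 rose and 2 fell, with 9 and 2 under library totals and 2 and 3 without the muscle-rich pools, and 4 rose without any 1 of the KO pools. Gdf15, a stress hormone, had 0.0395, 0.0583 and 0.139 CPM in WT against 2.46, 3.24 and 1.18 CPM in KO (4.72 ± 0.52, adjusted p = 0.000145), at the lower end of detection in WT, and was at 5.40 without WT replicate 3. The enzymes of amino acid synthesis in this list split. Psat1, of serine synthesis, rose 2.59-fold, from 3, 3.44 and 2.57 CPM to 11.4, 5.7 and 6.16 CPM (1.37 ± 0.27), while Asns, asparagine synthetase, fell from 65.1, 57 and 59.2 CPM to 32.6, 27.1 and 30.9 CPM, by 2-fold. The transcription factor of this response, Atf4, was at 0.06 and did not pass, with a sign that turned without WT replicates 2 or 3 or KO replicate 5. The unfolded protein response of the endoplasmic reticulum had 2 rises and 4 falls among 20, and the proteasome 4 rises and 3 falls among 45. These balances rested on the scaling, since with library totals the counts were 6 rises and 12 rises with no fall. Without the muscle-rich pools 1 gene rose in the former and none in the latter. The former had 1 or 2 falls without WT replicates 2 or 3 or KO replicate 6, and the latter 1 or 2 rises without the same pools.

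Of 22 p53 target genes 8 rose and 2 fell, with a median of 0.30, against 10 rises under library totals and 6 without the muscle-rich pools. Bax, of the mitochondrial death pathway, rose from 5.01, 6.06 and 6.11 CPM to 11.7, 12.9 and 11 CPM (1.05 ± 0.13), and Gtse1 rose from 0.355, 0.175 and 0.335 CPM to 0.962, 1.51 and 1.31 CPM (2.13 ± 0.35). The classic targets Mdm2 (0.22) and Cdkn1a (1.05) did not pass, though they passed as rises in 3 and 4 alternatives. In the cell cycle 9 of 26 tested genes rose, 15 with library totals, 3 without the muscle-rich pools and 5 without KO replicate 6 alone. Ccnd2, a D-type cyclin, rose from 16.7, 18.6 and 17.2 CPM to 31.6, 29.7 and 30.7 CPM (0.81 ± 0.09), and the mitotic cyclin Ccnb2 rose 2.79-fold at a low level (1.48 ± 0.27). Macrophage and stromal markers were also higher in the same pools. Whether these transcripts come from adipocytes was not tested.

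Immediate-early transcription factors rose more often than all tested genes and did not fall more often. Of 19 tested 8 rose (42.1% against 16.7% of all) and 2 fell (10.5% against 17.8%). There were 12 rises under library totals and 4 without the muscle-rich pools. The rises were 4 or 5 without WT replicates 2 or 3 or KO replicates 5 or 6. Junb rose from 8.37, 9.39 and 10.5 CPM to 17.5, 17.3 and 16.8 CPM (0.87 ± 0.11), and Jund from 39.8, 26.6 and 25.4 CPM to 57.7, 68.5 and 63.7 CPM (1.05 ± 0.17). Myc fell from 5.64, 4.49 and 4.43 CPM to 2.86, 2.52 and 2.59 CPM (-0.86 ± 0.17). Fos itself was at 0.16 and did not pass, with a sign that turned in 3 alternatives.

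In the EGF family the share of falls (40%) was above that of all tested genes (17.8%), and that of rises (20%) was near it (16.7%). Of 10 tested genes 4 fell (the ligands Btc, Nrg4 and Egf and the receptor Erbb4) and 2 rose (the receptors Egfr and Erbb2). The counts were the same with library totals and were 3 falls and 1 rise without the muscle-rich pools. Btc, betacellulin (GRCm38 chromosome 5, 91357261 to 91402994, minus strand), had 6.39, 7.23 and 5.13 CPM in WT against 0.962, 0.589 and 0.808 CPM in KO (-2.98 ± 0.23, adjusted p = 1.53e-05). Nrg4, a secreted factor of brown fat, fell from 413, 361 and 316 CPM to 181, 202 and 195 CPM (-0.92 ± 0.11). Erbb4, the receptor that binds both ligands, fell 2.82-fold (-1.49 ± 0.18), and Egfr, which binds betacellulin, rose 1.65-fold, from 3.2, 3.88 and 2.87 CPM to 6.14, 4.81 and 5.49 CPM (0.72 ± 0.18).

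Among 23 adipokines and factors secreted by brown fat 3 rose and 6 fell, against 4 and 4 with library totals and 2 and 3 without the muscle-rich pools. Nampt, which makes a precursor of NAD, fell from 514, 560 and 505 CPM to 227, 186 and 198 CPM (-1.37 ± 0.11, adjusted p = 1.59e-05). Apln, apelin, fell 3.10-fold (-1.63 ± 0.33). In insulin and IGF signalling 7 of 23 rose and 3 fell, against 10 and 2 with library totals and 2 and 2 without the muscle-rich pools. Grb14, an inhibitor of the insulin receptor, fell from 28.9, 39.3 and 52.3 CPM to 13.2, 10.6 and 9.19 CPM (-1.87 ± 0.24), and Igfbp5, which binds IGF, rose 1.77-fold (0.82 ± 0.11). Angpt1, a ligand of the endothelial receptor Tie2, fell from 18.2, 27.4 and 26.5 CPM to 7.78, 4.65 and 6.06 CPM (-1.96 ± 0.22).

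Of 17 clock genes 6 fell and 1 rose at the single time of day sampled. Hlf, an output factor of the clock, fell from 52.3, 51.7 and 58.2 CPM to 16.4, 11.7 and 16.7 CPM (-1.86 ± 0.13, adjusted p = 1.17e-05), and Per2, a core repressor, fell 1.62-fold (-0.70 ± 0.15). Nr1d1, which represses the activators of the clock, was the member that rose (0.65 ± 0.14), and it did not pass without the muscle-rich pools. With library totals 2 members fell, and without the muscle-rich pools 4. A single time point cannot show whether an oscillation shifted.

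Carbonic anhydrases, which interconvert carbon dioxide and bicarbonate, had 4 rises and 5 falls among 11, with 5 and 5 under library totals and 2 and 4 without the muscle-rich pools. Car6, the secreted form, had 0.158, 0.117 and 0.139 CPM in WT against 13.1, 12.3 and 11.6 CPM in KO, a rise of 88.1-fold (6.46 ± 0.20, adjusted p = 2.49e-08). Its WT level was near the lower end of detection and its KO pools lay close together. Car4, anchored to membranes, rose 1.81-fold (0.86 ± 0.12). Car3, the abundant adipocyte form, fell from 3655, 3536 and 2986 CPM to 2390, 1617 and 1914 CPM (-0.78 ± 0.15).

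Of 14 tested imprinted growth genes 7 rose and 1 fell, 8 and 1 with library totals, and 3 rose without the muscle-rich pools. Nnat, neuronatin, rose from 7.62, 3.67 and 4.16 CPM to 21.1, 25 and 21.1 CPM (2.14 ± 0.27), and Plagl1, a zinc finger regulator of imprinted genes, from 1.22, 1.17 and 0.976 CPM to 5.06, 3.14 and 3.77 CPM (1.84 ± 0.23). Zdbf2 rose 8.57-fold (3.10 ± 0.33). Of 7 tested genes of creatine synthesis and cycling 3 rose (5 with library totals and 1 without the muscle-rich pools), led by the creatine transporter Slc16a12, from 0.908, 0.7 and 0.697 CPM to 6.36, 7.86 and 5.18 CPM (3.08 ± 0.22). The mitochondrial and cytosolic creatine kinases Ckmt2 (-0.70) and Ckb (-0.07) did not pass, and each turned sign in at least 1 alternative. Nnat overlaps Blcap, and Zdbf2 and Slc16a12 overlap predicted genes on the opposite strand.

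In iron and heme handling 6 of 22 genes fell and 1 rose, against 1 fall and 3 rises with library totals and 1 and 1 without the muscle-rich pools. Slc40a1, ferroportin, the iron exporter, fell from 13.8, 28.7 and 27.3 CPM to 8.26, 7.96 and 8.01 CPM (-1.53 ± 0.27, adjusted p = 0.00712), and the member that rose was Ftl1, the ferritin light chain (0.63 ± 0.11). Glutathione and antioxidant genes had 4 rises and 7 falls among 39, with 7 and 3 under library totals and 1 and 4 without the muscle-rich pools. The falls were 4 without KO replicate 5 and the rises 2 without WT replicate 3. The glutathione transferase Gsta3 rose 5.50-fold (2.46 ± 0.20). Potassium channels had 14 rises and 5 falls among 38, at a median of 0.51, against 17 and 3 with library totals and 6 and 2 without the muscle-rich pools. The rises were 7 without WT replicate 2, and the falls 3 without WT replicate 3 or KO replicate 6.

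Several of the largest changes lay outside these lists. Litaf, a protein of late endosomes, rose 7.32-fold, from 10.3, 8.19 and 6.75 CPM to 50.2, 71.3 and 62.3 CPM (2.87 ± 0.18), and Tbc1d9 rose 6.62-fold (2.73 ± 0.31). Among falls, Mmd2 fell 8.85-fold, from 16, 14.4 and 10.2 CPM to 2.23, 0.819 and 1.48 CPM (-3.15 ± 0.35), Trim67 6.55-fold (-2.71 ± 0.21) and Gldn, gliomedin, 6.02-fold (-2.59 ± 0.21). Cdh2, N-cadherin, fell from 38.8, 33.8 and 36.1 CPM to 10.9, 8.48 and 9.52 CPM (-1.91 ± 0.11, adjusted p = 2.99e-06), Slc16a7, a carrier of lactate and pyruvate, 3.70-fold (-1.89 ± 0.20) and Fbp2, fructose-bisphosphatase, 4.04-fold (-2.01 ± 0.18). Litaf and Tbc1d9 overlap predicted genes, so their counts are uncertain. The same limit applies to other genes named above that overlap another named gene on the opposite strand, among them Aldh6a1, Gabpa, Tfb1m, Cideb, G0s2, Col4a1, Col18a1, Npc1, Mmp12, Mmp19, Nrg4, Nr1d1, Junb, S100b and Polr2i.

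Long genes fell more often than short genes. Among 12845 tested protein-coding genes in quintiles of gene length, 12% of the shortest quintile (0.255 to 8.92 kb) were lower and 19.8% higher, and 26.9% of the longest quintile (from 73.5 kb) were lower and 13% higher. Expression also moved with direction: 24% of the least expressed quintile were higher and 6.31% lower, against 11.1% and 24.8% of the most expressed quintile. Within the most expressed quintile, 34.2% of 515 long genes and 19% of 458 short genes were lower, and 7.96% and 13.3% were higher. The share of falls was larger in long than in short genes in every quintile of expression. With library totals the shares of falls were 11.1% for the longest and 3.93% for the shortest quintile, and without the muscle-rich pools 10.9% and 3.37%. Genes are not replicates, so these shares are given as a description with no test, and the part of RNA quality was not tested.

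**Figure D4:**
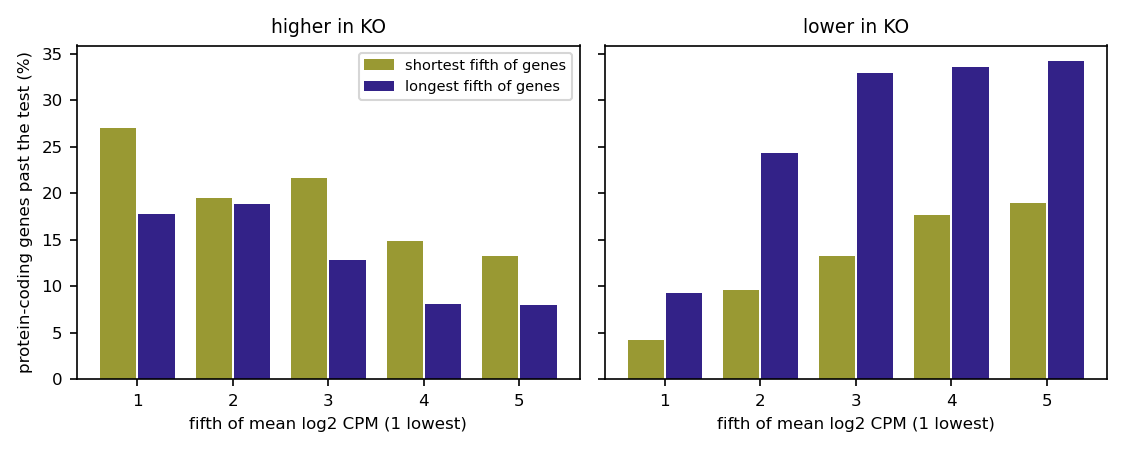
Share of protein-coding genes past the test, higher in KO (left panel) and lower in KO (right panel), for the shortest and the longest quintile of genes within each quintile of mean log2 CPM. Falls reached 34.2% of long and 19% of short genes in the most expressed quintile.

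Genes on chromosome X fell more often than those of other chromosomes, with 26.1% of 463 lower and 12.5% higher. Around Cdk7 on chromosome 13, 5 of 15 tested genes within 1 Mb were lower and 2 higher, and within 10 Mb 23% of 100 were lower and 13% higher. On chromosome 13 as a whole 21.7% of 557 were lower and 12.9% higher.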

How the data were processed

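RNA of interscapular brown fat was sequenced in 12 pools, of which the 6 room temperature pools were compared, 3 per genotype. The deposited values are raw counts of reads per Ensembl gene. Per the submitters' processing notes the authors used STAR and HTSeq with GRCm38, in versions that the notes do not give. File names refer to a reverse strand setting, which nothing else states, so overlapping genes are uncertain. The 5 summary lines per file were left out: 26.6 to 30.2% of reads had several alignments, 1.64 to 2.04% lay outside genes, 1.07 to 1.37% were ambiguous and 1.12 to 1.86% not aligned. Names and positions of 53274 of 53379 IDs came from GENCODE M21.

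In R 4.3.3, edgeR 4.0.16 filtered genes (filterByExpr, which left out 38795), scaled libraries by TMM (factors 0.823 to 1.1) and fitted 1 mean per genotype with robust quasi-likelihood estimates (prior count 0.125, biological coefficient of variation 16.7%). P-values were adjusted by Benjamini-Hochberg over the 14584 genes. Standard errors were derived from the log2 fold change and the F statistic (their size over its square root). The fit was tried on simulated counts in which few genes changed and muscle level did not differ. That trial does not test the scaling where many genes change. Replicates differed by more than sampling noise (chi-square of 20.1 to 98.5 per degree of freedom).

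The genes, 50 gene lists and 16 marker lists were chosen with earlier results of these data known. Patterns of gene symbols took protein-coding genes. The rule for named genes took Cdk7, Ucp1, Ppargc1a, Dio2, the 25 largest rises and falls (mean log2 CPM of at least 1, pools apart), the 12 largest changes in CPM each way, up to 6 members per list by p, and the TFIIH members: 425 genes, 371 of them called. The text prefers the 207 whose call held in all 16 alternatives, a preference made after the values were seen. A few list members given by fold change alone were also chosen then. A comparison of promoter motifs between risen and fallen genes is void, since 79.7% of tested protein-coding genes, under 80%, have a promoter in the RefSeq table. Alternatives were median-ratio size factors, library totals, other filters, DESeq2 1.42.0, limma 3.58.1 voom with sample weights, all 12 libraries, no mitochondrially encoded genes, muscle level as a covariate, and libraries left out. Some genes the rule takes are not reported here.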

Additional observations from a re-analysis of the deposited data

How the results depend on the processing

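The counts of genes past the test moved most with the scaling and with the muscle-rich pools. With library totals alone 3802 genes were higher and 998 lower, and over 2-fold 1309 higher and 327 lower. Without the pool of each genotype richest in skeletal muscle transcripts 834 were higher and 910 lower, and 501 were higher by over 2-fold, with 2 pools against 2. When single pools were left out, higher genes ran from 1530 to 2388, lower genes from 1667 to 2672, higher genes by over 2-fold from 665 to 851 and lower ones from 435 to 697. The lowest counts of rises came without WT replicate 2 (1530) and without KO replicate 6 (1556), and the lowest of falls without KO replicate 6 (1667). The other settings, namely size factors, filters, DESeq2, limma voom, all 12 libraries, mitochondrial genes left out and the muscle covariate, kept each count within 1.5 times. Gtf2h5, at -0.02 as reported, changed sign with library totals (0.18), a strict filter (0.01) and without the muscle-rich pools (0.09), and ran from -0.08 to 0.06 when single pools were left out. Other named genes that did not pass also turned sign, namely Ckb (0.14) and mt-Nd1 (0.04) with library totals and Fos (-0.06) with the muscle covariate. With single pools left out Ckb ran from -0.34 to 0.08, mt-Nd1 from -0.35 to 0.07, Fos from -0.11 to 0.33, Atf4 from -0.06 to 0.29 and Ckmt2, a gene also of muscle, from -7.55 to 0.32. Of the named genes that passed the test, none turned sign. No paired analysis was possible because the WT pools are numbered 1 to 3 and the KO pools 4 to 6, so that no number is shared. Depth limits genes under about 1 CPM, such as Trem2 and Gdf15 in WT, whose fold changes depend on the prior count. Trem2, Gdf15, Atp6v0d2, Mmp12 and Car6 passed the filter on low counts through their KO pools.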
